A study of Mus musculus with 9 samples.

Results

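The 3 libraries labelled batch 2 were compared with the 6 libraries labelled batch 1, among 9 libraries of mouse medullary brainstem in all. The labels put GFP library 4 and hIL-6 libraries 4 and 5 in batch 2, and GFP libraries 1 to 3 and hIL-6 libraries 1 to 3 in batch 1. All animals were wild type and received an adeno-associated virus (AAV2) in the cortex 3 weeks before tissue was taken, with GFP as the cargo in the control group and human interleukin 6 (hIL-6), labelled AAV2-HIL6-GFP, in the other. The tissue was a punch of the medulla that holds the raphe nuclei, so the RNA came from neurons, glia and vessels together. What was shared within a batch (animals, extraction, library preparation or sequencing run) is not stated in the labels. Whether the libraries came from different animals is not stated either, so the tests rest on the spread among libraries, part of which may be technical. The neurons that the punch was taken for were present in both batches. Tph2, which makes serotonin in raphe neurons, was read at 11.9 to 49.98 FPKM (fragments scaled to the length of the transcript and the size of the library) in batch 1, with a median of 43.8, and at 44.6, 41.1 and 29.8 FPKM in batch 2.

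Libraries made from polyadenylated RNA do not sample all transcripts alike. Fragments rich in guanine and cytosine (G and C), fragments of unequal length and the far end of long transcripts are known to be read with an efficiency that varies between preparations. Mitochondrial transcripts are rich in A and T and very abundant in brain, while messages of ribosomal proteins are short. Such properties are therefore the usual axes along which batches of libraries are described.

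The libraries of batch 2 held more of their FPKM in the 100 most abundant genes, mitochondrial transcripts among them, than those of batch 1. The 100 genes with the highest mean took 45.6%, 45.96% and 45.7% of all FPKM in batch 2, against 39.3% to 41.3% in batch 1, where the mean was 40.3% ± 0.668 (SD, n = 6). The 13 mitochondrial transcripts alone took 28.7%, 29.3% and 27.9% in batch 2 and 22.7% to 25.4%, with a median of 24.1%, in batch 1. Gm28661, a nuclear copy of one of them, had a mean of 15782 FPKM in batch 2 and 4074 in batch 1. Whether abundant genes other than these gained in share was not tested. The sum of FPKM was 628191, 635729 and 633369 in batch 2 and 567971 to 610938 in batch 1. It includes the same transcripts, so the sum and the share of the highest genes are not independent measures. Relative depth, read from the steps between low values and given in arbitrary units, was 44.2, 46.5 and 38.4 in batch 2 and 31.5 to 38.6 in batch 1, so that hIL-6 library 5 lay just below GFP library 2, the deepest of batch 1, and the other 2 above it. The length that had to be subtracted from each transcript for the low values to come out as whole fragments was 178.5, 172.5 and 175 nucleotides in batch 2 and 156.5 to 165.5 in batch 1. An exact two-sided permutation test within treatment, with 40 arrangements, gave p = 0.025 for depth, for the sum and for the share of the 100 highest genes, which is the smallest p it allows. Adjusted over the 4 measures tested this was 0.0333, and the number of genes listed at 0, which ranged from 265 to 376 over batch 1 and from 265 to 307 over batch 2, gave an adjusted p = 0.25. On the first principal component, which held 32.8% of the variance of the tested genes, the 3 batch 2 libraries scored 20.4 to 24.9 and the batch 1 libraries -20.96 to -1.17.

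Among 13958 genes whose mean reached 0.5 FPKM, 3138 differed between the batches with treatment as a term in limma (adjusted p under 0.05, Benjamini-Hochberg over all tested genes), which is 22.5%. In batch 2, 1585 (11.4%) were higher and 1553 (11.1%) were lower. Most of these differences were small. The median difference was 0.35 on the scale of log2(FPKM + 0.5) among the genes that were higher and -0.34 among those that were lower. Of the 3138 genes, 50 differed by at least 1. For 3877 genes (27.8%) the values of the batches did not overlap, with batch 2 higher for 2000 of them (14.3% of all tested). The GFP libraries and the hIL-6 libraries share no library, and the batch difference taken in each alone had the same sign for 78.7% of all tested genes, with a Spearman correlation across genes of 0.695. Without GFP library 4, the only GFP library of batch 2, 29 of 13973 genes passed (0.208%), 16 higher (0.115%) and 13 lower (0.093%), and 28 of them were among the 3138. Batch 2 then held hIL-6 libraries only, so that with treatment as a term the batch difference came from the hIL-6 libraries. With relative depth as a further term 3 genes passed. Dividing each library by its sum of FPKM moved the median of all tested genes to -0.11 and the split of calls to 536 higher and 3194 lower, so that differences under that scaling are relative to this shift.

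The direction of a gene's difference followed the base composition of its transcript. When genes were split into 5 equal groups (quintiles) by GC content, the counts of higher genes fell from group to group. In the lowest quintile (31.0% to 44.0% of the longest annotated transcript), 892 of 2681 genes were higher in batch 2 and 26 were lower, with a median difference of 0.22. In the quintile with the highest GC content (55.7% to 74.7%), 3 of 2680 genes were higher and 896 were lower, with a median of -0.23. The 3 quintiles between them had medians of 0.10, 0.01 and -0.10 in order of rising GC. Across the 13401 tested genes with an annotated transcript, the Spearman correlation of the difference with GC content was -0.64, given as a description because the genes share 9 libraries. The medians of the lowest and the highest quintile were 0.23 and -0.24 in the GFP libraries alone and 0.21 and -0.23 in the hIL-6 libraries alone. Without GFP library 4 they were 0.21 and -0.23, which is the same contrast as in the hIL-6 libraries alone and no separate check.

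The stretches below illustrate the range of composition with genes chosen for their contrast from the 12 with the smallest p in each direction. Predicted genes aside, Wnk1 and Rpl13 had the smallest p of the named genes in each direction. Those 2 genes differ little in GC content, at 49.0% and 52.0%. The lines below are taken from GENCODE M21 on GRCm38, the assembly mm10, as the middle 90 bases of each gene's longest coding exon, 5′ to 3′ on the coding strand, with every G and C in capitals. Orc4 and Tpp2 were higher in batch 2, and Jund and Dmwd were lower.
Orc4: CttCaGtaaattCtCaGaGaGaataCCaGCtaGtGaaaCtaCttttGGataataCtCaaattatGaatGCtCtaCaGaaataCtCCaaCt
Tpp2: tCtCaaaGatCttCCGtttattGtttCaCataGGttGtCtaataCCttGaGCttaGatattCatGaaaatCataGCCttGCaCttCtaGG
Jund: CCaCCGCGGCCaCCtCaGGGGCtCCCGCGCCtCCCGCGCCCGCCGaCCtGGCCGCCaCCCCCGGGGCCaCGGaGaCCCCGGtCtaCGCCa
Dmwd: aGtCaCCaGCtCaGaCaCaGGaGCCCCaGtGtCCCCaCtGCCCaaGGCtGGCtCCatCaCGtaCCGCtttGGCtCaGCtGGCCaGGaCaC
G and C make up 33.3% of the Orc4 stretch (chr2:48905461-48905550, minus strand) and 35.6% of the Tpp2 stretch (chr1:43983149-43983238, plus strand). They make up 82.2% of the Jund stretch (chr8:70699524-70699613, plus strand) and 63.3% of the Dmwd stretch (chr7:19080626-19080715, plus strand). Over the whole longest transcript the GC content was 36.8% for Orc4, 35.8% for Tpp2, 67.1% for Jund and 62.5% for Dmwd.

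The tilt along GC content differed between libraries of the same batch as well. It was taken as the median deviation of the highest GC quintile minus that of the lowest quintile, each gene being centred on its mean over the 9 libraries. In batch 2 it was -0.35 in GFP library 4, -0.30 in hIL-6 library 4 and -0.25 in hIL-6 library 5. In batch 1 it ran from 0.02 in GFP library 3 to 0.26 in GFP library 2, with a median of 0.15. The batches did not overlap, and the nearest libraries across them were GFP library 3 and hIL-6 library 5.

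**Figure D1:**
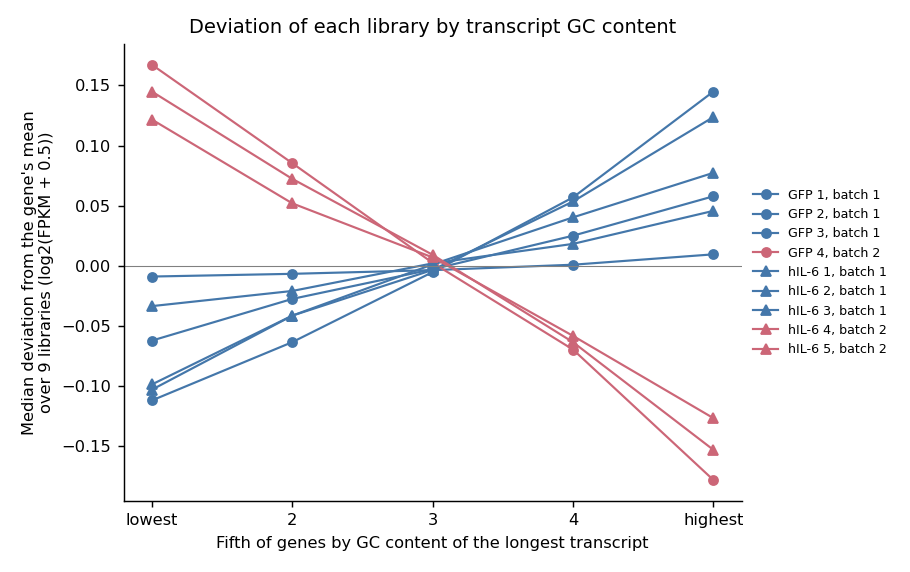
Median deviation of each library from the mean of the 9 libraries, on the log2(FPKM + 0.5) scale (y axis), in 5 equal groups (quintiles) of genes ordered by the GC content of the longest transcript (x axis). Each line is a library, red for batch 2 and blue for batch 1, with circles for GFP and triangles for hIL-6. The 3 batch 2 lines fall from the lowest to the highest quintile and the 6 batch 1 lines are level or rise, with GFP library 3 the flattest.

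Among long transcripts more genes were higher than lower in batch 2, and among short ones more were lower. Of 790 genes whose longest transcript is over 8 kb, 269 were higher and 10 were lower, with a median difference of 0.26. Of 880 genes under 1 kb, 49 were higher and 176 lower, with a median of -0.13, and of 2115 genes of 1 to 2 kb, 69 were higher and 455 lower, with a median of -0.13. Genes of 2 to 4 kb had a median of -0.03, which was 0.06 by the length of the median annotated transcript, and genes of 4 to 8 kb a median of 0.09, which was -0.02 when libraries were divided by their sums. Length and GC content are themselves related (Spearman correlation -0.25 across these genes), so the classes were crossed. Within the lowest GC quintile, the median rose from 0.19 under 1 kb and 0.15 at 1 to 2 kb to 0.36 over 8 kb. Within the highest quintile it rose from -0.30 under 1 kb to -0.07 over 8 kb. After a loess fit of GC content was removed in each library, a choice made after the data were seen, the median of genes over 8 kb was 0.16 and that of genes under 1 kb was -0.07. When the length of a gene's median annotated transcript was used in place of the longest, the medians were -0.05 under 1 kb and 0.24 over 8 kb.

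**Figure D2:**
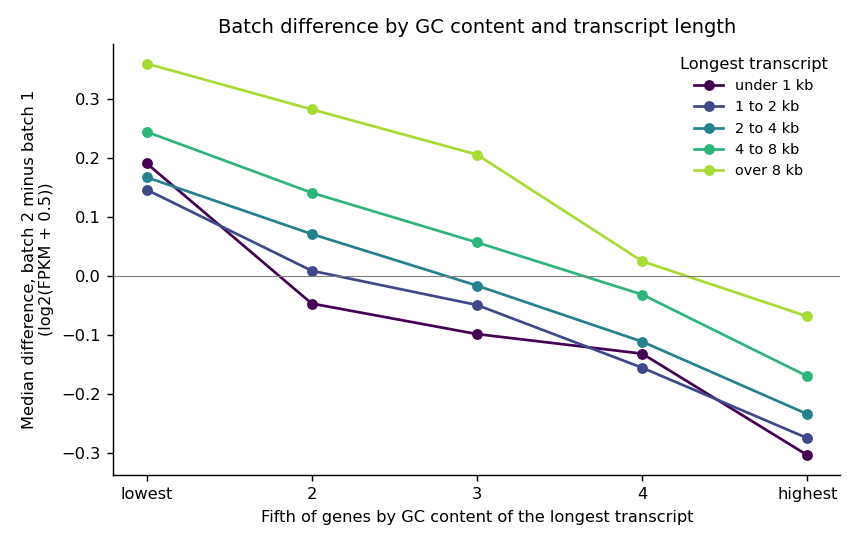
Median difference of batch 2 minus batch 1 on the log2(FPKM + 0.5) scale (y axis) by quintile of GC content (x axis), with a line for each class of transcript length. The lines fall with GC content in every length class, from 0.36 to -0.07 for transcripts over 8 kb and from 0.19 to -0.30 for those under 1 kb, and transcripts over 8 kb lie above the others in all 5 quintiles.

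Predicted and clone-named genes aside, the genes with the smallest p that were higher in batch 2 encode a varied set of proteins. Wnk1 (chr6:119923969-120038672), a kinase that controls chloride transport and whose longest transcript has 11330 bases, was read at 120.03, 115.3 and 113.3 FPKM in batch 2 and at 76.1 to 85.1 FPKM, with a median of 78.5, in batch 1. It differed by 0.56 ± 0.04 on the log2(FPKM + 0.5) scale (SE; limma adjusted p = 0.00107, and 0.0322 without GFP library 4). Orc4, a subunit of the origin recognition complex, was at 37.95, 36.6 and 39.6 FPKM in batch 2 and at 22.6 to 27.3, with a median of 23.4, in batch 1. Its difference was 0.65 ± 0.06 (SE; limma adjusted p = 0.00229). Chl1, a neuronal cell adhesion molecule, was at 16.3, 15.2 and 13.7 FPKM against 8.25 to 10.003 with a median of 8.98, a difference of 0.73 ± 0.08 (SE). All 3 genes had values in batch 2 above every value of batch 1. The other 9 in order of p were Fbxo11, Hsp90aa1, Zdhhc17, Tpp2, mt-Nd4, Rtn4 (Nogo, a myelin inhibitor of axon growth), Mfn1 (mitofusin 1, for mitochondrial fusion), Upf2 and Cdc73, with differences of 0.38 for Rtn4 to 0.78 for Cdc73. None of these 12, chosen by their small p, overlapped between the batches, beside 27.8% of all tested genes without overlap. Without GFP library 4, Wnk1, Orc4, Chl1, Fbxo11 and Mfn1 still passed, and the others had adjusted p between 0.0563 and 0.0606.

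Predicted and clone-named genes aside, the genes with the smallest p that were lower in batch 2 included ribosomal proteins and a neuropeptide-processing inhibitor. Rpl13, a protein of the large ribosomal subunit, was at 212.4, 220.9 and 224.7 FPKM in batch 2 and at 287.7 to 328.5, with a median of 313.4, in batch 1. Its difference was -0.51 ± 0.05 (SE; limma adjusted p = 0.00167, and 0.0332 without GFP library 4). Dmwd, named for its place beside the myotonic dystrophy kinase gene, was at 28.4, 28.5 and 27.4 FPKM against 38.9 to 41.2 with a median of 39.9. Pcsk1n, which encodes proSAAS, an inhibitor of prohormone convertase 1, was at 224.2, 251.1 and 251.3 FPKM against 355.7 to 437.1 with a median of 388.9, a difference of -0.71 ± 0.07 (SE). Each of these had lower values in every batch 2 library than in any library of batch 1. Jund, a transcription factor of the AP-1 family, was at 67.4, 73.8 and 80.1 FPKM against 114.2 to 148.6 with a median of 127.8, a difference of -0.82 ± 0.08 (SE). The other 8 were Rpl27, Abhd16a, Dda1, Fscn1 (the actin-bundling protein fascin), Ndufa4l2, Ring1 (a Polycomb ubiquitin ligase), Tmem158 and Chrac1. Their differences ran from -0.46 for Dda1 to -0.90 for Ndufa4l2, and again these genes, chosen by small p, did not overlap. Without GFP library 4, Dda1, Ring1, Tmem158 and Chrac1 no longer passed, with adjusted p of 0.0542 to 0.0606.

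The largest differences outside genes with a known copy fell on unrelated genes, several of them at low levels. Predicted and clone-named genes, and genes that did not pass the test, were left out. Among the other genes without an annotated near-identical copy, whose mean reached 1 FPKM and with no overlap between batches, the 8 largest increases ran from 0.95 for Fat3, a large cadherin, to 2.14 for Krcc1, which was at 5.9, 5.44 and 3.91 FPKM in batch 2 and at 0.149 to 2.2, with a median of 0.854, in batch 1. The others were TTC14, Hsf1 (the heat shock transcription factor), Asah2, Ndufa9, mt-Atp8 and Bre. Bre was at 10.4, 11.4 and 10.8 FPKM against 1.29 to 4.73 with a median of 3.21. Among the largest decreases, 7 ran from -0.81 for Cacna1h, a T-type calcium channel, to -1.28 for Klhl33, and the others were H2-Ab1, Ndufa4l2, Leng8, Ptpn18 and Jund. H2-Ab1, a chain of MHC class II, was at 1.006, 1.22 and 1.254 FPKM against 2.12 to 3.83 with a median of 2.62. Bre and TTC14 are spelled as in the deposited table and matched no symbol of the annotation, so they were not searched for copies. The table also lists Ttc14 under its mouse spelling, with a difference of 0.45 (limma adjusted p = 0.00631). TTC14 was listed at 0 in GFP library 2 and hIL-6 library 2, and Klhl33 in hIL-6 library 5. Of these 15 genes, Jund and Ndufa4l2 passed without GFP library 4 and the other 13 did not.

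Most transcripts made in mitochondria were higher in batch 2. Mitochondria transcribe their own genome into a few abundant messages for subunits of the respiratory chain, which are polyadenylated and so enter these libraries. Of the 13 protein-coding transcripts, all of them tested, 8 were higher and 1 was lower, with a median difference of 0.35. Under quantile normalization, which gives every library the same set of values, the median was -0.04, and mt-Nd4, mt-Nd4l, mt-Co1 and mt-Atp6 changed sign. mt-Nd4, a subunit of complex I, was at 9323, 9535 and 9151 FPKM in batch 2 and at 6442 to 6619, with a median of 6541, in batch 1, and differed by 0.51 ± 0.06 (SE; limma adjusted p = 0.00362). mt-Nd2 and mt-Nd3, also of complex I, differed by 0.61 and 0.59, mt-Cytb, the cytochrome b of complex III, by 0.37, mt-Co1 of complex IV by 0.35, mt-Atp6 of the ATP synthase by 0.41 and mt-Nd4l by 0.30. In these 7, which all passed, the values of the batches did not overlap, beside 27.8% of all tested genes without overlap. mt-Nd1, mt-Nd5 and mt-Co3 differed by 0.21, 0.16 and 0.28 and did not pass (adjusted p = 0.169, 0.18 and 0.0889), nor did mt-Nd6, the only one read from the other strand, at 0.03 (adjusted p = 0.832). Without GFP library 4 none of the 13 passed, and their median was 0.34. The transcripts have GC contents of 31.9% (mt-Atp8) to 41.1% (mt-Nd4l), all within the range of the lowest GC quintile, and after removal of GC content in each library their median was 0.10 with 1 higher and 1 lower.

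The shortest of them, mt-Atp8, had the largest difference. It was at 34642, 33649 and 30390 FPKM in batch 2 and at 13810 to 22039, with a median of 16618, in batch 1, a difference of 0.99 ± 0.14 (SE; limma adjusted p = 0.00515, and 0.0644 without GFP library 4). Its transcript has 204 bases, and FPKM divides by a length from which the offset is taken away. With the offsets read from the low values, that length would be 25.5, 31.5 and 29 nucleotides in batch 2 and 38.5 to 47.5, with a median of 43.5, in batch 1. The offsets were read from longer transcripts, so this is an extrapolation. The length by which the deposited values of mt-Atp8 were divided is not known. The part of this in the difference was not tested.

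mt-Co2, a subunit of cytochrome c oxidase, was the exception, and its value cannot be read alone. It was at 8279, 10374 and 8539 FPKM in batch 2 and at 13435 to 15397, with a median of 13880, in batch 1, a difference of -0.65 ± 0.09 (SE; limma adjusted p = 0.00502). Gm28661, an unprocessed pseudogene on chromosome 1 (chr1:24614885-24615565, minus strand), went the other way, at 16605, 14481 and 16261 FPKM in batch 2 and at 3388 to 5263, with a median of 3943, in batch 1, a difference of 1.93 ± 0.12 (SE; limma adjusted p = 0.000125, and 0.00127 without GFP library 4). Over 681 aligned bases the 2 transcripts do not differ. The stretches below, from GENCODE M21 on GRCm38, show the middle of the alignment, in lower case because no base differs.
mt-Co2: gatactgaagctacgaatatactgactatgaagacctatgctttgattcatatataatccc
Gm28661: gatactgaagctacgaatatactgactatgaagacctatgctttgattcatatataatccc
The mt-Co2 stretch lies at chrM:7323-7383 on the plus strand and the Gm28661 stretch at chr1:24615195-24615255 on the minus strand. A fragment from such a stretch fits both genes, so how it was divided between them rests on the estimate and not on the fragment. The sum of the pair was 24884, 24855 and 24800 FPKM in batch 2 and 17117 to 19187, with a median of 18142, in batch 1, without overlap. The difference of the sum was 0.45 ± 0.04 (SE), in the direction of the other mitochondrial transcripts. mt-Co3 has a copy too, Gm28437, which matches it over 783 bases, and their sum differed by 0.37 ± 0.09 (SE), without overlap. Copies were also annotated for mt-Co1 (Gm13340), mt-Atp6 (Gm10925) and mt-Nd3 (Gm28438). With the copy added these differed by 0.35, 0.34 and 0.59, without overlap, beside 0.35, 0.41 and 0.59 alone.

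**Figure D3:**
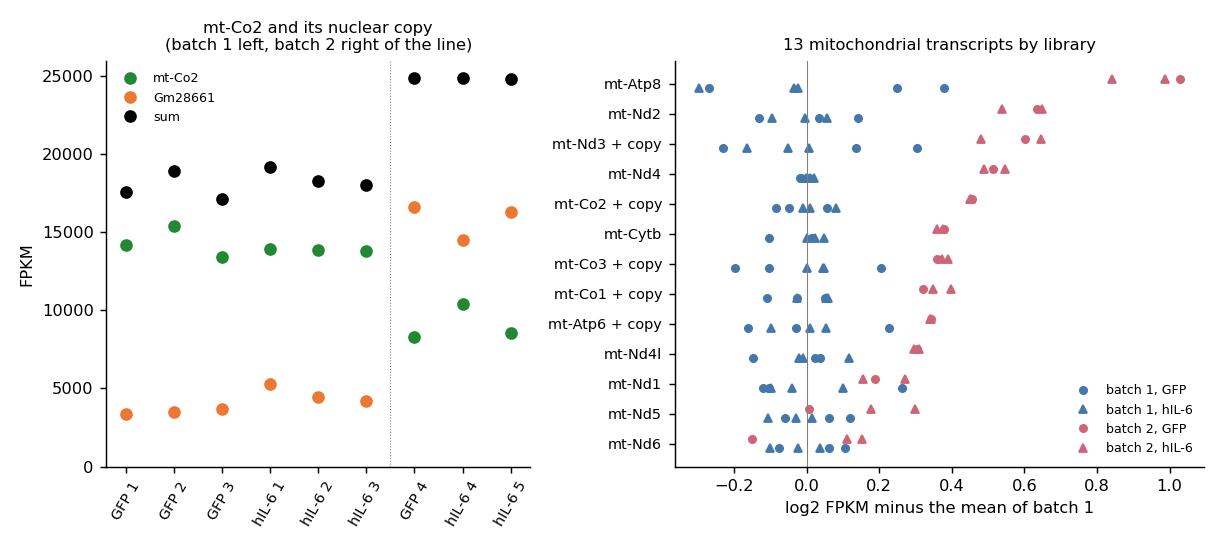
Left, FPKM of mt-Co2, of its nuclear copy Gm28661 and of their sum in each library, batch 1 left and batch 2 right of the dotted line. Right, log2 FPKM of the 13 mitochondrial transcripts minus the mean of batch 1, with annotated copies added where named, blue for batch 1 and red for batch 2. In the left plot mt-Co2 is lower and Gm28661 higher in batch 2 while the sum is higher at 24800 to 24884, and in the right plot the batches overlap for mt-Nd1, mt-Nd5 and mt-Nd6.

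Most of the large differences that passed the test fell on genes with a near-identical copy. Of 13401 tested genes with an annotated transcript, 459 (3.43%) have a copy among the annotated transcripts that matches at least 97% of bases over at least 80% of the transcript. Among them 26.1% passed the test, beside 22.4% of all annotated genes. Genes that passed with a difference of at least 1 were 30 of the 459 (6.54%), and 45 of all 13401 (0.336%). The 30 were 18 higher and 12 lower genes, 28 of them annotated as pseudogenes, and 11 have a cytosolic ribosomal protein gene as the most abundant copy. Of the 30 pairs, the copy passed in the opposite direction to the gene in 12 and in the same direction in 3, and in 15 it did not pass. The pairs are not independent, since Rpl21 and Timm23 recur as the copy. Gm10171 and Gm10233, both paired with Timm23, had the same values in every library. In 16 pairs the copy was on average over 10 times as abundant as the gene, so that the sum of such a pair follows the copy and says little about the gene.

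The largest difference of all belonged to a pair, Rpl11, a protein of the large ribosomal subunit, and Gm10288, a processed pseudogene (chr3:146838811-146839347). Gm10288 was listed at 0 in all 6 libraries of batch 1 and at 49.1, 46.95 and 56.6 FPKM in batch 2 (limma adjusted p = 2.64e-10, and 1.19e-07 without GFP library 4). Rpl11 was at 267.04, 277.2 and 306.1 FPKM in batch 2 and at 310.4 to 354.4, with a median of 316.1, in batch 1 (difference -0.21 ± 0.06 (SE), limma adjusted p = 0.0388). Their sum was 316.2, 324.2 and 362.6 FPKM in batch 2 and 310.4 to 354.4 in batch 1, which overlap, and it differed by 0.03 ± 0.06 (SE). Over 537 aligned bases the transcripts differ at 1 position, shown in capitals below in 61 bases of each, from GENCODE M21 on GRCm38.
Rpl11: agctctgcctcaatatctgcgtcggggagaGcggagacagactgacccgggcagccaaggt
Gm10288: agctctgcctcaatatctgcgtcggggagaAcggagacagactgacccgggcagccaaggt
Counted from 1 at the left end of these lines the change from Rpl11 to the pseudogene is G31A. The Rpl11 stretch spans chr4:136052608-136052668 on the minus strand and the Gm10288 stretch chr3:146839232-146839292 on the minus strand. Whether the batches differ in this base in the reads was not tested, since no reads were used here.

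Gm8430, a processed pseudogene of Rps27a, was at 22.7, 27.8 and 26.96 FPKM in batch 2, and in batch 1 it was listed at 0 in 4 libraries, at 2.08 in GFP library 1 and at 1.77 in hIL-6 library 1. Rps27a itself, which encodes ubiquitin fused to a ribosomal protein, differed by -0.03 ± 0.06 (SE), and the sum of both by 0.08 ± 0.06 (SE). Zxdb encodes a zinc finger protein, and Zxda, annotated as an unprocessed pseudogene, matches it at 99.962% of aligned bases, both on the X chromosome. Zxda was at 0.0739 FPKM in GFP library 4 and 0.796 in hIL-6 library 5 and was listed at 0 in hIL-6 library 4, while batch 1 had 2.6 to 4.31 with a median of 3.04. Zxdb was higher in batch 2, at 4.18, 4.27 and 3.75 FPKM against 2.34 to 2.97. Their sum was lower in batch 2, with a difference of -0.38 ± 0.07 (SE), without overlap.

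**Figure D4:**
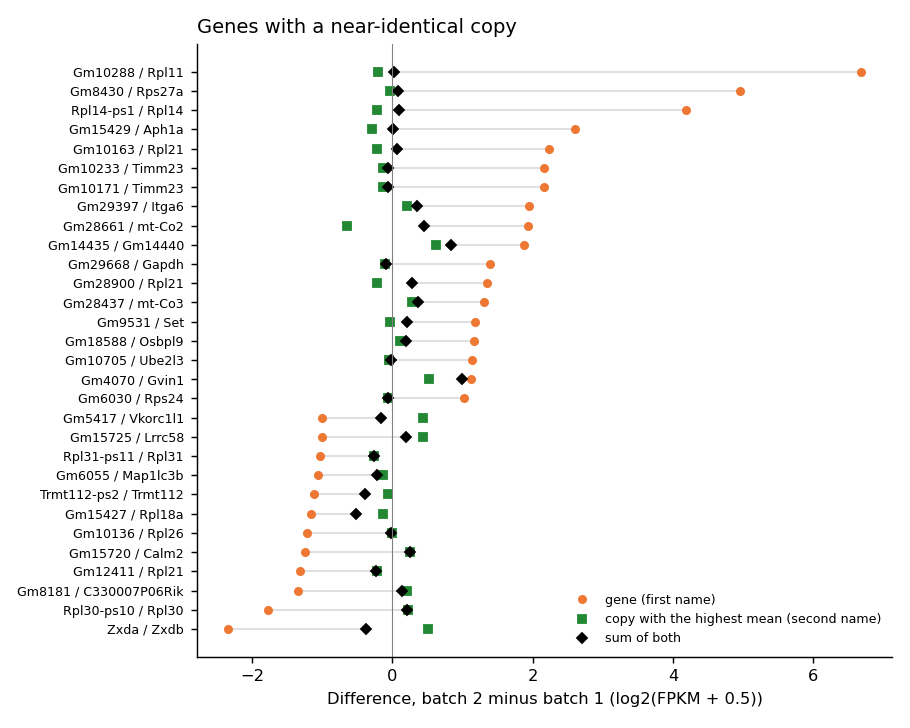
Difference of batch 2 minus batch 1 on the log2(FPKM + 0.5) scale (x axis) for the 30 called genes with a near-identical copy and a difference of at least 1 (orange circles), for the most abundant copy of each (green squares) and for the sum of both (black diamonds). Where the copy is far more abundant the black diamond follows the green square by construction, and for Gm10288, listed at 0 in batch 1, the position of the circle depends on the pseudocount.

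Among nuclear genes for the ribosomes of cytosol and mitochondria far more passed as lower than as higher in batch 2. Ribosomal proteins build the 2 subunits of the ribosome and are made in matched amounts. Of 83 tested cytosolic ribosomal protein genes, 32 were lower and 2 were higher (11.1% and 11.4% of all tested genes were), with a median of -0.18. Rpl27 was at 66.7, 68.6 and 68.7 FPKM in batch 2 and at 92.8 to 107.9, with a median of 98.9, in batch 1 (difference -0.56 ± 0.06 (SE), limma adjusted p = 0.00229). Rps23 and Rpl10a differed by -0.59 and -0.72. The 2 that were higher, named after their values were seen, were Rpl23 at 0.18 and Rpl30 at 0.22. Many of these genes have processed pseudogenes, so single values are uncertain. Of 78 mitochondrial ribosomal protein genes, 20 were lower and none was higher, with a median of -0.12. Mrps12, Mrps34, Mrps24 and Mrpl43 differed by -0.41, -0.38, -0.47 and -0.32. After GC content was removed, 16 cytosolic ribosomal protein genes were lower with a median of -0.13, and 5 mitochondrial ones with a median of -0.14. With length removed as well the medians were -0.06 and -0.08. Without GFP library 4, Rpl13 and Rpl27 were lower and no other gene of the 2 lists passed, with medians of -0.17 and -0.14.

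Among nuclear genes of oxidative phosphorylation more were lower than higher, while most mitochondrial ones were higher. Of 88 tested genes for subunits and assembly of the respiratory chain, 28 were lower (31.8%) and 5 were higher (5.68%) in batch 2, with a median of -0.16. Of all tested genes 11.1% were lower and 11.4% higher. Ndufa4l2, a relative of the complex IV subunit Ndufa4, was at 1.95, 1.89 and 2.02 FPKM in batch 2 and at 3.47 to 4.53, with a median of 4.11, in batch 1 (difference -0.90 ± 0.10 (SE), limma adjusted p = 0.0028). Ndufa8 and Ndufs7, both of complex I, differed by -0.34 and -0.44. The 5 that were higher, named after their values were seen, were Ndufa9 at 1.00, Cycs (cytochrome c) at 0.36, Uqcrc2 at 0.20, Ndufs1 at 0.18 and Sdha at 0.14. Ndufa9 was at 21.2, 20.7 and 22.7 FPKM against 6.11 to 13.8. These nuclear genes have a median transcript length of 1001 bases and a median GC content of 50.3%, and with GC content removed 10 were lower and 1 was higher with a median of -0.14. With length removed as well the median was -0.07. Ndufa4l2 was the only gene of the list that passed without GFP library 4.

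Genes of RNA processing and protein turnover passed in both directions, as did all tested genes (11.4% higher and 11.1% lower). Among 58 spliceosome proteins 7 were higher (12.1%) and 10 were lower (17.2%). The median was 0.02, and it was -0.09 when libraries were divided by their sums and -0.01 when they were centred on their medians. The splicing factors Srsf3 and Srsf7 were higher by 0.43 and 0.72, and the U1 snRNP proteins Snrpc and Snrpa lower, at -0.43 and -0.38. Their GC contents were 40.9% for Srsf3, 41.6% for Srsf7, 45.8% for Snrpc and 51.3% for Snrpa, and Snrpc was lower despite a longest transcript of 6107 bases. Among 60 initiation and elongation factors 5 were higher (8.33%) and 8 lower (13.3%). Subunits of the same complex differed in direction, with Eif3a at 0.53 and Eif3j1 at 0.31 against Eif3f at -0.25 and Eif3g at -0.24. Eif3a and Eif3j1 have longest transcripts of 5125 and 5413 bases with GC contents of 44.5% and 42.5%, and Eif3f and Eif3g of 2514 and 1101 bases with 49.8% and 55.8%. Of 38 proteasome subunits 6 were lower (15.8%), among them Psma7 at -0.26, Psmb1 at -0.29 and Psmd3 at -0.31. In the other direction 2.63% passed, and Psmd14 was higher at 0.23. Snrpa was the only gene of these 3 lists that passed without GFP library 4 (adjusted p = 0.042).

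Among zinc finger genes more passed as higher than as lower, and among histone genes those that passed were lower. Of all tested genes 11.4% were higher and 11.1% lower. Of 313 genes named Zfp, which encode the largest class of DNA-binding proteins, 57 were higher and 21 lower, with a median of 0.12. Zfp369 and Zfp397, with GC contents of 40.1% and 40.02%, were higher by 0.52 and 0.51, and Zfp580 and Zfp653, with 65.0% and 55.0%, were lower by -0.55 and -0.52. After GC removal the median of the list was 0.02, with 1 higher and 4 lower. Of 35 histone genes 10 were lower and none higher, with a median of -0.14 that was 0.06 after GC removal. H2afx, the histone variant marked at DNA breaks, differed by -0.42, the linker histone H1f0 by -0.30, Hist3h2ba by -0.55 and H2afj by -0.37. Of 30 genes matching the pattern for collagens, 5 were lower, among them Col9a2 at -0.67, Col26a1 at -0.55 and Col11a2 at -0.49. The single higher gene, Col4a3bp at 0.41, is no collagen but the ceramide transporter CERT. None of these genes passed without GFP library 4.

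Chaperones and motor proteins contained more higher than lower genes, while 11.4% of all tested genes were higher and 11.1% lower. Of 62 heat shock proteins and co-chaperones 15 were higher and 6 lower, with a median of 0.05 that was -0.05 when libraries were divided by their sums. Hsp90aa1, the inducible cytosolic HSP90, is not in that list and is given because of its small p. It was at 983.3, 889.2 and 886.4 FPKM in batch 2 and at 587.1 to 666.3, with a median of 637.6, in batch 1 (difference 0.55 ± 0.06 (SE), limma adjusted p = 0.00274). Hspa8, the constitutive HSC70, was at 1901, 1914 and 1766 FPKM against 1352 to 1468 with a median of 1422, a difference of 0.40 ± 0.05 (SE). Hspa4 differed by 0.36, and the co-chaperones Dnajc19 and Hspbp1 by -0.45 and -0.44. Dnajc19, with a GC content of 40.3%, lay opposite to the median of its GC quintile. Of 50 kinesins, dyneins and myosins, which carry cargo along microtubules and actin, 10 were higher and none lower, with a median of 0.11 that was 0.12 after GC removal and 0.0023 when libraries were divided by their sums. Kif1b, a carrier of synaptic vesicle precursors with a longest transcript of 10233 bases, was at 209.4, 195.6 and 198.96 FPKM against 125.8 to 169 with a median of 151.1, and Dync1li2 and Kif21a differed by 0.28 and 0.37. Voltage-gated channel genes passed about as often as all tested genes. Of 38, 5 were higher (13.2%), among them the potassium channel genes Kcna2 at 0.42, Kcnab1 at 0.24 and Kcnd2 at 0.28, and 3 were lower (7.89%), among them Cacna1h. None of these genes passed without GFP library 4, where Hsp90aa1 had an adjusted p = 0.0563.

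**Figure D5:**
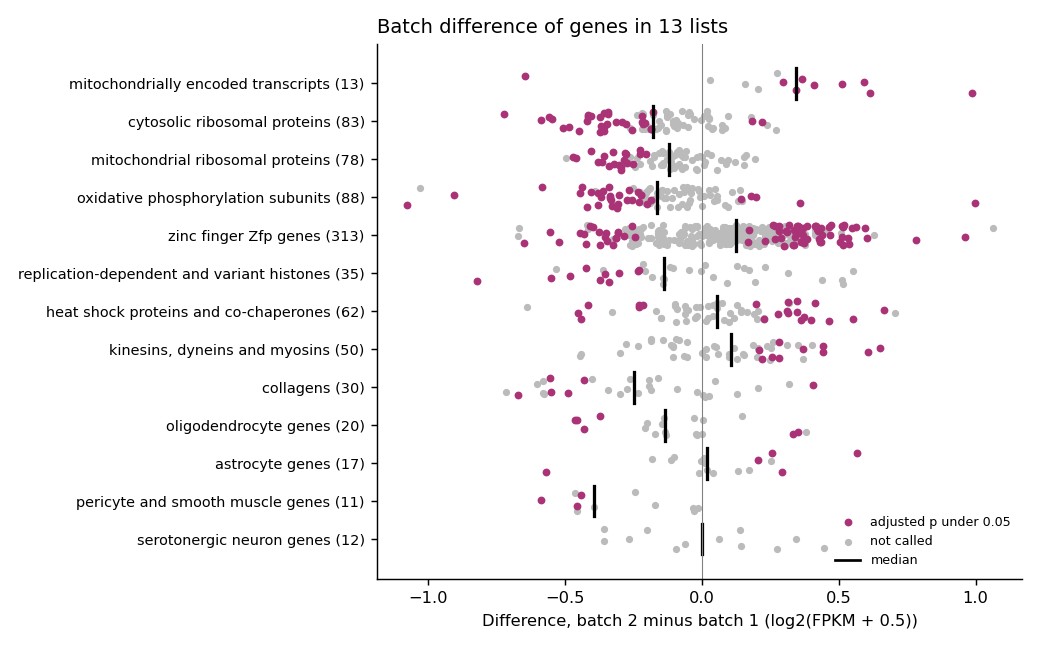
Difference of batch 2 minus batch 1 on the log2(FPKM + 0.5) scale (x axis) for the tested genes of 13 lists (rows, with the number tested). Purple points passed at an adjusted p under 0.05, grey points did not, and the black bar is the median. Among the 13 lists shown, mitochondrial transcripts have the highest median at 0.35, with mt-Co2 alone on the left. Pericyte and smooth muscle genes have the lowest of those shown at -0.39, and the meningeal fibroblast list, not shown, had -0.58.

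Among gene families with a shared symbol and at least 20 tested members, the extremes of the median were Pcdhb at 0.31 and Col at -0.25. Of all tested genes 11.4% were higher and 11.1% lower. The 20 clustered protocadherin beta genes, which encode neuronal adhesion molecules, had 5 higher (25%) and none lower. The ubiquitin-specific proteases (Usp) had 13 higher (28.9%) and 1 lower (2.22%) of 45, with a median of 0.14. The Cox genes had 9 lower (34.6%) and none higher of 26, with a median of -0.19. After GC removal these medians were 0.18 for Pcdhb, -0.10 for Col, 0.10 for Usp and -0.14 for Cox. Of these families 2 Usp genes then passed as higher and 2 Cox genes as lower, and no Pcdhb or Col gene passed, beside 3.63% of all genes in that fit.

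In these bulk libraries fewer cells of a type and less RNA per cell cannot be told apart. None of 12 serotonergic neuron genes and none of 10 motor neuron genes passed, beside 22.5% of all tested genes. Chat, which makes acetylcholine, was at 0.463, 7.61 and 3.96 FPKM in batch 2 and at 0.866 to 6.95, with a median of 4.03, in batch 1. The median of the motor neuron list was -1.92 in the GFP libraries and 1.14 in the hIL-6 libraries, and in both Chat and that list GFP library 4 lay below the other batch 2 libraries. None of 15 Hox genes passed. The haemoglobin genes Hbb-bs and Hba-a1 did not pass (limma adjusted p = 0.768 and 0.471), nor did Fos (limma adjusted p = 0.669), a gene induced by neuronal activity. Of 21 immediate early genes 2 were lower (9.52%), among them Jund, and none was higher, beside 11.1% and 11.4% of all tested genes.

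Of 17 astrocyte genes 4 were higher (23.5%) and 1 lower (5.88%), beside 11.4% and 11.1% of all tested genes. Slc1a2, the main glutamate transporter of astrocytes, was at 252.4, 235.4 and 249.3 FPKM in batch 2 and at 140.8 to 188.7, with a median of 169.98, in batch 1 (difference 0.57 ± 0.09 (SE), limma adjusted p = 0.00547). Fgfr3, a growth factor receptor of astrocytes, was at 33.3, 27.4 and 31.8 FPKM against 41.8 to 50.7 with a median of 46.95, a difference of -0.57 ± 0.08 (SE). Slc1a2 has a longest transcript of 11595 bases and a GC content of 45.3%, and Fgfr3 one of 4245 bases and 56.4%. Of 20 oligodendrocyte genes 2 were higher (10%), Ugt8a at 0.33 among them, and 4 were lower (20%). The lower ones included Ppp1r14a at -0.46, Opalin at -0.43 and Gjb1 at -0.37, with Ppp1r14a and Gjb1 overlapping between the batches. Of 16 pan-neuronal genes 1 was higher (6.25%) and 3 were lower (18.8%), with a median of -0.01. Map2, a dendritic microtubule protein, was at 227.1, 222.8 and 192.6 FPKM against 116.3 to 161.3 with a median of 129.8. Tubb3, Uchl1 and Thy1 were lower by -0.26, -0.29 and -0.24. Of 8 glutamatergic neuron genes 3 were higher (37.5%) and none lower, with Slc17a6, which loads glutamate into synaptic vesicles, at 0.39 and Grin2b, an NMDA receptor subunit, at 0.66. Differences in this list were positive for 5 genes and negative for 3, with a median of 0.25. After GC removal the median was 0.09 and none of the 8 passed. Of 18 microglia genes 2 were higher (11.1%) and none lower, with a median of 0.04 that was -0.15 in the GFP libraries. P2ry12 and Gpr34, receptors of resting microglia, differed by 0.44 and 0.42, and their values overlapped between the batches. None of the genes in this paragraph passed without GFP library 4.

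A minority of vessel wall markers passed, and of all tested genes 11.4% were higher and 11.1% lower. Of 11 pericyte and smooth muscle genes 3 were lower and none higher, with a median of -0.39 that was -0.23 after GC removal and -0.41 without GFP library 4, where none passed. Vtn, made by brain pericytes, was at 22.8, 21.7 and 23.3 FPKM in batch 2 and at 28.3 to 41.9, with a median of 33.7, in batch 1, and Pdgfrb and Myl9 differed by -0.44 and -0.46. With relative depth as a further term the median of the list was 0.13. Of 13 meningeal fibroblast genes only Ptgds, a prostaglandin synthase of meninges and oligodendrocytes, passed, at 813, 602.9 and 811.1 FPKM against 1016 to 1740 with a median of 1168 (difference -0.74 ± 0.17 (SE), limma adjusted p = 0.0177, and 0.0993 without GFP library 4). As a list, the meningeal genes had a median of -0.58, with GFP library 3 and hIL-6 library 3 well above the other batch 1 libraries. Among 16 endothelial genes 1 was higher (Kdr at 0.35) and 1 lower (Cldn5 at -0.38), with a median of -0.02.

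When the trend along GC content was taken out of each library, 486 of 13401 genes differed (3.63%), 188 higher (1.40%) and 298 lower (2.22%), and 386 of them were also among the 3138. Wnk1 (difference 0.52, limma adjusted p = 0.00122), Rpl13 (-0.46, adjusted p = 0.00251), Pcsk1n (-0.51, adjusted p = 0.00472) and Jund (-0.37, adjusted p = 0.00782) passed, as did Orc4 and Gm28661. Dmwd (-0.16, adjusted p = 0.139), Tpp2 (0.23, adjusted p = 0.0943) and mt-Nd4 (0.20, adjusted p = 0.116) did not. Genes with a near-identical copy were 46 of the 486, beside 459 of all 13401 (3.43%). This alternative was chosen after the data were seen.

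The batch difference was compared between the treatments through an interaction term, and 2 of 13958 genes passed (0.0143%), with 297 at an unadjusted p under 0.05. Srp54a, a subunit of the signal recognition particle, had 82.3 and 82.7 FPKM in the hIL-6 libraries of batch 2, 44.7 in GFP library 4 and 57.6 to 64.3 in batch 1. Lxn, a carboxypeptidase inhibitor, had 43.3 and 45.6 FPKM in the hIL-6 libraries of batch 2, 24.5 in GFP library 4 and 35.9 to 43.6 in batch 1. The interaction was 0.946 for Srp54a and 1.08 for Lxn (limma adjusted p = 0.0383 and 0.0358). Both rest on the single GFP library of batch 2, and leaving out single libraries gave 0 to 3 genes. For the comparison of hIL-6 with GFP, no gene passed in limma either with batch as a term (543 at an unadjusted p under 0.05) or without it (333).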

How the data were processed

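RNA of 9 medullary brainstem punches was sequenced after poly(A) selection with a stranded mRNA kit, per the labels. The deposited table holds FPKM for 17187 gene symbols. The submitters' processing notes name kallisto, DESeq2 and the assembly mm10, without versions. kallisto divides fragments that fit several transcripts by an estimate. FPKM is not a count, so limma (version 3.58.1, in R 4.3.3) was fitted with a mean-variance trend to log2(FPKM + 0.5) with treatment and batch as terms, over 13958 genes whose mean reached 0.5 FPKM, with Benjamini-Hochberg adjustment and a threshold of 0.05. The pseudocount makes differences of weakly expressed genes appear smaller than they are. Relative depth and a length offset were taken from the steps between low FPKM values, of which 96.6% to 97.6% came out whole within 0.05 of a fragment. These are no depth in reads, so no counting interval is given. The fit was tested on simulated data.

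Of the symbols, 16429 matched GENCODE M21 (GRCm38), from which the length and GC content of the longest transcript were taken. Near-identical copies were found with blastn (version 2.17.0+) at 97% identity over 80% of the transcript. The genes named are the 12 with the smallest p in each direction, the 8 with the largest difference in each direction without overlap and with a mean of at least 1 FPKM, up to 4 genes of each list with the smallest p, and Rpl13, Hbb-bs, Hba-a1, Fos, Tph2 and Chat. Predicted genes and genes with copies are named only where they lead a class, and 1 gene that the rule selects is not reported here. Rpl23, Rpl30, Cycs, Uqcrc2, Ndufs1, Sdha, Psmd14, Ttc14 and the pairs of copies were named after their values were seen. The libraries, the gene lists and the tests were chosen with earlier results of these data known. Lists are described by counts and medians, without a test. Alternatives varied the pseudocount, the filter, the scaling, the terms of the model and the libraries, and those that remove GC content or length, or sum copies, were added after seeing the data.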

Additional observations from a re-analysis of the deposited data

Results flagged for a closer look

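In 9 of 174 items checked over the 6 batch 1 libraries (5.17%), the highest or lowest library lay far from the other 5 by Dixon's criterion, which chance alone meets in about 1 of 20. For Orc4 it was hIL-6 library 2, with 27.3 FPKM against 22.6 to 24.1. GFP library 3 stood apart for Zdhhc17 at 21.2 FPKM (others 19.3 to 19.5), for Asah2 at 6.99 (others 3.1 to 4.38) and for mt-Cytb at 9021 (others 9708 to 10029). GFP library 2 stood apart for Rtn4 at 193.8 FPKM (others 204.7 to 211.1) and for mt-Co2 at 15397 (others 13435 to 14157). GFP library 1 stood apart for the haemoglobin genes Hbb-bs at 243.8 FPKM (others 32.8 to 88.02) and Hba-a1 at 117.8 (others 16.01 to 37.4), and for Zxda at 4.31 (others 2.6 to 3.15). The batch difference differed between treatments by an interaction of 1.08 for Lxn, from -0.79 in GFP to 0.29 in hIL-6 libraries, and of 0.946 for Srp54a, from -0.46 to 0.49, with 1 GFP library in batch 2.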

How the results depend on the processing

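No paired analysis was possible because the replicate numbers in the library titles differ between the batches (1 to 3 in batch 1, 4 and 5 in batch 2). Leaving out single libraries gave 29 to 3370 genes past the threshold (16 to 1689 higher, 13 to 1681 lower). The lowest counts were without a batch 2 library, at 29 without GFP library 4, 958 without hIL-6 library 4 (447 higher, 511 lower) and 1696 without hIL-6 library 5 (840 and 856). The count was 5336 with library weights (2710 and 2626), 19 in the hIL-6 libraries alone (12 and 7), 15 in the GFP libraries alone (5 and 10), 3 with relative depth as a term (3 and 0), 486 with GC content removed (188 and 298) and 473 with GC content and length removed (207 and 266). Division by each library's sum gave 536 higher and 3194 lower. The interaction passed for 1 gene under that scaling or quantile normalization, for 0 without the trend, and for 0 to 3 without single libraries. The cause of these changes was not tested.

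Medians follow in the order lowest and highest GC quintile, under 1 kb and over 8 kb. They were 0.12, -0.34, -0.23 and 0.16 after that division, 0.26, -0.29, -0.21 and 0.42 with depth as a term, and 0.005, -0.0061, 0.008 and 0.0363 with GC content and length removed, which removes these trends by construction. With GC content alone removed the quintiles were at 0.0038 and -0.0013 and genes over 8 kb at 0.16. By the median transcript, genes under 1 kb were at -0.0452 and those of 2 to 4 kb at 0.0636. Genes of 1 to 2 kb were at 0.0008 and of 4 to 8 kb at -0.0022 with GC content and length removed, and genes of 4 to 8 kb at -0.0155 after that division. Mitochondrial transcripts had a median of 0.23 after that division, -0.0377 under quantile normalization, 0.255 with depth, 0.10 with GC content removed and 0.15 with length removed too. Cytosolic ribosomal proteins had -0.29 after that division, -0.0955 under quantile normalization and, with GC content and length removed, -0.0556. Histones had 0.06 with GC content removed and 0.10 with length too. Heat shock proteins had -0.0549 after that division. Spliceosome proteins had -0.0855 after that division, -0.0070 centred on library medians, -0.0171 in GFP libraries, -0.0856 with depth, -0.0402 with GC content removed and -0.0224 with length too. Pericyte genes had 0.13 with depth.

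Under quantile normalization, mt-Nd1 was at -0.0668, mt-Nd4 at -0.0377, mt-Nd4l at -0.0234, mt-Nd6 at -0.16, mt-Co1 at -0.16, mt-Co3 at -0.0545, mt-Atp6 at -0.11 and Rps27a at 0.0663. With depth as a term, Hbb-bs was at 0.0544, Fos at -0.095, mt-Nd1 at -0.0806, mt-Nd6 at -0.0461, mt-Co3 at -0.014 and Lxn at 0.0184. With GC content removed, and then with length too, Chat was at 0.0572 and 0.0714, mt-Nd1 at -0.0753 and -0.0206, mt-Nd5 at -0.13 and -0.0644, mt-Nd6 at -0.31 and -0.29 and Srp54a at -0.0711 and -0.0718, and Rpl30 was at -0.0336 with GC content removed. In GFP libraries alone, mt-Nd5 was at -0.0346, mt-Nd6 at -0.18 and Srp54a at -0.46. In hIL-6 libraries alone, Chat was at 1.57 and Lxn at 0.29. mt-Nd6 was at -0.0808 after that division, -0.0141 with library weights and -0.01 from the interaction fit, and Srp54a at -0.0125 with library weights. Without single libraries, Hbb-bs ranged from -0.47 to 0.0447, Tph2 ranged from -0.0831 to 0.47, Chat ranged from -0.76 to 1.57, mt-Nd6 ranged from -0.0203 to 0.16, Rps27a ranged from -0.0865 to 0.0192 and Lxn ranged from -0.27 to 0.29. None of these but mt-Nd4, mt-Nd4l, mt-Co1, mt-Atp6 and Rpl30 passed the main test. Of 122 named genes that passed, 105 no longer did without GFP library 4. Relative depth is known only up to a constant, so precision at low FPKM cannot be given.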
